A study of Mus musculus with 30 samples.

Results

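Potassium channel subunits of the Kcn gene families were followed across 5 tissues of newborn mice that lacked the nuclear receptor ERRγ and of wild-type mice. The members are all probe sets whose array annotation gives a single symbol beginning with Kcn and a family letter from a to v, without Kcnj1 (ROMK), Kcnq1 and Kcne2. The rule gave 86 of 22626 probe sets, which stood for 59 of 12393 genes. Of the members, 25 probe sets were for auxiliary subunits, 18 for voltage-gated alpha subunits, 18 for inward rectifiers, 12 for tandem pore channels, 9 for calcium-activated and Slo channels and 4 for ether-a-go-go channels. Kcnj16 was not among them.

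The study set ERRγ-null mice against wild-type mice in stomach, kidney, salivary tissue, liver and brain, on 30 Affymetrix MOE430A arrays with 3 in each of 10 groups. Its title places the receptor in cardiac, gastric and renal potassium homeostasis. Per the labels, all mice were neonatal, untreated, fed chow, of unknown sex and of mixed SV129/C57BL/6 background, and total RNA was taken from whole tissue with Trizol. The labels do not describe the null allele and do not state that arrays of 1 group stand for different animals, so a p-value here sets a difference against a spread that may be partly technical. The small number of arrays limits precision throughout. In bulk tissue, fewer cells of a type and less RNA per cell cannot be told apart.

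A potassium channel lets potassium pass down its gradient, which sets the resting potential of a cell, repolarizes it after excitation, or recycles potassium beside a pump or cotransporter in an epithelium. Voltage-gated alpha subunits open on depolarization, calcium-activated channels open when internal calcium rises, inward rectifiers and tandem pore channels carry resting currents, and auxiliary subunits change the gating or trafficking of the pore they join. Parietal cells of the stomach and tubule cells of the kidney depend on apical and basolateral potassium channels for acid secretion and salt transport. ERRγ is an orphan nuclear receptor that binds the extended core motif TNAAGGTCA and is known for driving genes of oxidative metabolism.

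Values are log2 MAS5 signals. Since the file carries no detection calls, a member was counted as above background in a group where all 3 arrays reached the 40th percentile of their own array, a level between 5.20 and 5.57. Each labelled tissue carried its defining gene, with wild-type means of 10.02 for Snap25 in brain, 10.5 for Atp4a in stomach, 12.9 for Bpifa2 in salivary tissue, 10.7 for Umod in kidney and 12.9 for Alb in liver. The only probe set for Esrrg, the targeted gene, lay between 6.02 and 6.76 in null arrays and between 5.89 and 6.64 in wild-type arrays, so it does not check the genotype. Wild-type stomach arrays 2 and 3 stood apart in Alb, at 10.25 and 11.9, against 6.19 to 7.06 in null stomach and 5.93 in wild-type stomach array 1. The null brain array of replicate 1 stood apart in summed striated muscle markers, at 10.4 against 7.05 and 6.84 in the other null brain arrays, and in summed salivary gland markers, at 8.10 against 4.86 and 5.68.

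Most members were not above background. Of the 86 probe sets, 29 were above background in null brain and 30 in wild-type brain, 19 in null and 16 in wild-type salivary tissue, 14 in null and 17 in wild-type kidney, 16 in null and 15 in wild-type stomach, and 9 in null and 11 in wild-type liver. The share of members was highest at 33.72% in null brain and 34.88% in wild-type brain and lowest at 10.47% in null liver and 12.79% in wild-type liver, while each of the 10 groups held 53.93% to 56.19% of all probe sets above the same level. Across the 10 groups, 32 genes had a probe set above background in some group and 27 genes in none, and 46 probe sets were above it nowhere. Kcnh1 (an ether-a-go-go channel), Kcnj3 (a G-protein-gated inward rectifier) and 1 probe set of Kcnmb2 (an auxiliary subunit of the BK channel) were above background in all 10 groups. Of 19 genes with several probe sets, 5 had all of them above background somewhere, 7 had some and 7 had none, so an absent reading of 1 probe set is not an absent gene.

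In both genotypes of brain, 21 genes were above background, namely Kcna1, Kcna6, Kcnab1, Kcnc1, Kcnd2, Kcnh1, Kcnh2, Kcnip1, Kcnip4, Kcnj10, Kcnj3, Kcnj6, Kcnk1, Kcnk2, Kcnma1, Kcnmb1, Kcnmb2, Kcnmb4, Kcnn1, Kcnn2 and Kcnu1. In both genotypes of kidney, 12 genes were above it, namely Kcnab1, Kcnc1, Kcne4, Kcnh1, Kcnj10, Kcnj15, Kcnj3, Kcnj8, Kcnk1, Kcnmb1, Kcnmb2 and Kcnmb4. The 13 genes of both genotypes of stomach were Kcna5, Kcne4, Kcnh1, Kcnip1, Kcnj15, Kcnj3, Kcnj8, Kcnk1, Kcnma1, Kcnmb1, Kcnmb2, Kcnmb4 and Kcnn4. Liver had 8 such genes, Kcna6, Kcnc1, Kcnh1, Kcnj3, Kcnj6, Kcnj8, Kcnmb2 and Kcnn4. Salivary tissue had 13, Kcna6, Kcna7, Kcnc1, Kcne4, Kcnh1, Kcnj3, Kcnj8, Kcnk1, Kcnk4, Kcnma1, Kcnmb1, Kcnmb2 and Kcnn4.

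A smaller set of probe sets was above background in 1 genotype of a tissue. In null tissue alone these were Kcne1l, Kcna5 and Kcne4 in brain, Kcna6 in kidney, Kcna1, Kcna6 and Kcnc1 in stomach, Kcnma1 in liver, and Kcna5, Kcnj6, Kcnab1 and Kcnmb4 in salivary tissue. In wild-type tissue alone they were Kcnj8, Kcna2, Kcna4 and Kcnip3 in brain, Kcna2, Kcnma1, Kcnh2 and Kcna7 in kidney, a probe set of Kcnip1 and Kcnh2 in stomach, probe sets of Kcnmb2, Kcnmb4 and Kcnj6 in liver, and a probe set of Kcnmb2 in salivary tissue. Falling on either side of a level is no test of a difference, which is given below for each member the results turn on.

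**Figure D1:**
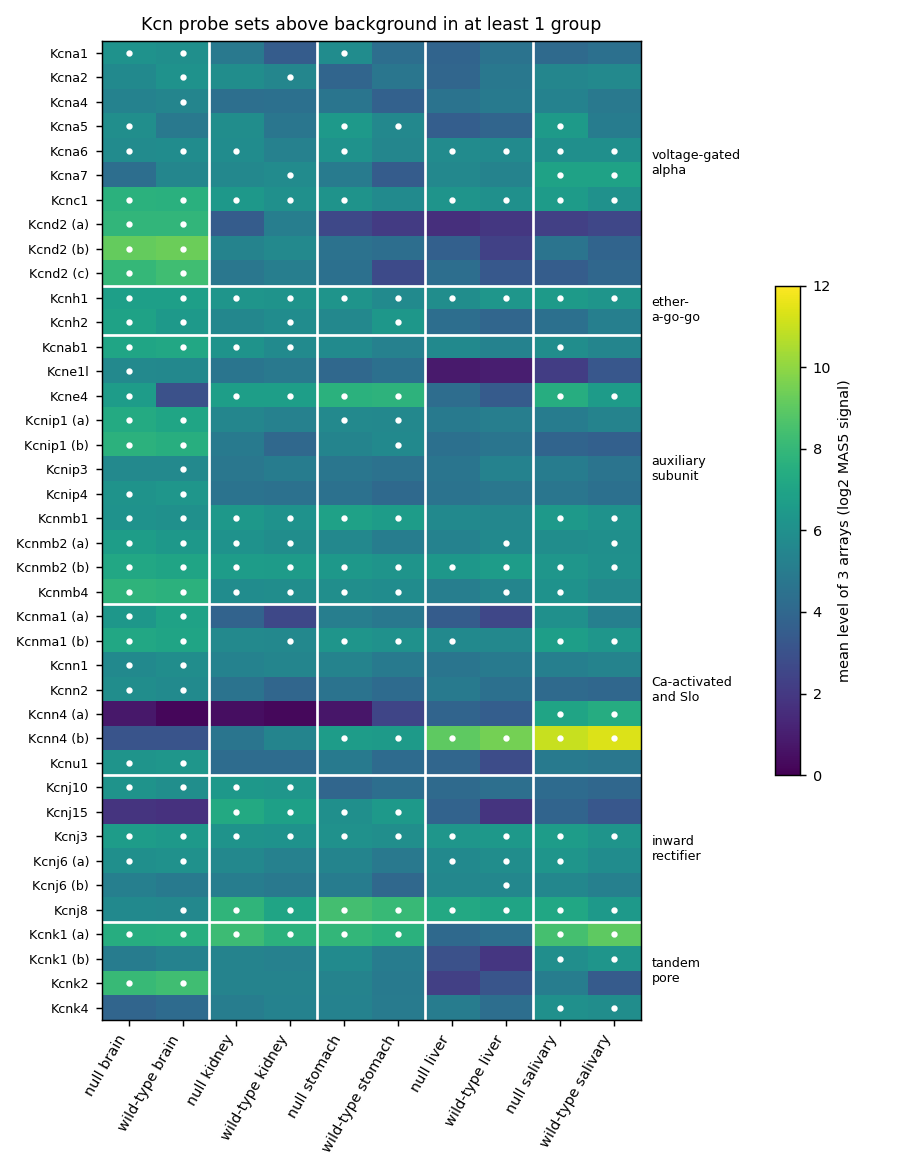
Mean level of 3 arrays (colour, log2 MAS5 signal) for the Kcn probe sets above background in at least 1 of the 10 groups, grouped by family, with null left of wild type in each tissue. White dots mark groups above background, and letters tell apart probe sets of a gene. Kcnh1, Kcnj3 and a probe set of Kcnmb2 carry a dot in every column, and the brain columns hold 29 dots in null mice and 30 in wild-type mice.

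Where the members are expressed was tested in the 15 wild-type arrays, each tissue against the mean of the other 4. These 5 comparisons share their arrays. In wild-type brain 37 members were higher and 8 lower than in the other tissues (limma, Benjamini-Hochberg adjusted p under 0.05), against a background of 26.4% of all probe sets higher and 25.7% lower, and 26 of the 37 were above background in brain. As shares of the 86 members these were 43.02% higher and 9.3% lower. The other tissues had 6 higher and 10 lower members in kidney (background 18.6% and 13.3%), 9 and 21 in stomach (15.8% and 18.8%), 5 and 23 in liver (19.7% and 31.5%), and 9 and 12 in salivary tissue (19.4% and 16.6%). Of the 86 probe sets, 12 (13.95%) were above background in wild-type brain and in no other wild-type tissue, as were 3.6% of all probe sets.

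Neuronal channels led in brain. Kcnd2, the pore of a dendritic A-type channel, was read by 3 probe sets, and the probe set 1422835_at had 9.12, 9.24 and 9.5 in wild-type brain. Its wild-type values elsewhere were at most 5.86, and all 3 brain arrays stood above every other wild-type array. The difference was 5.24 ± 0.31 (SE, limma adjusted p = 1.07e-09), and at least 3.87 once values under the background level were set to that level. Bounds given as at least are computed this way here and in what follows. The other probe sets of Kcnd2 were higher by 4.98 and 4.56. Kcnip1 and Kcnip4, calcium sensors that bind the A-type pore, were higher by 3.01 ± 0.41 (at least 2.08, limma adjusted p = 1.46e-05) and 1.89 ± 0.24 (at least 0.98, adjusted p = 7.16e-06).

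Kcnk2, a tandem pore channel gated by membrane stretch and lipids, was higher in wild-type brain by 4.09 ± 0.30 (SE, at least 2.94, limma adjusted p = 1.69e-08). The BK pore Kcnma1 was higher by 3.14 ± 0.38 on the probe set 1424848_at (at least 1.57) and by 1.14 ± 0.15 on 1425987_a_at, and its neuronal auxiliary subunit Kcnmb4 was higher by 1.99 ± 0.12 (limma adjusted p = 1.22e-09). Kcna1, an axonal voltage-gated subunit, was higher by 1.79 ± 0.55 (at least 0.60, limma adjusted p = 0.0127). Kcnu1, known as the sperm channel Slo3, was higher by 2.32 ± 0.39 (at least 0.97, limma adjusted p = 0.000129). Kcnj8, the pore of the vascular ATP-sensitive channel, was lower in wild-type brain than in the other tissues, by -1.55 ± 0.10 (limma adjusted p = 2.13e-09).

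The inward rectifier Kcnj15 led in kidney and was also higher in stomach. Its values were 6.94, 6.87 and 6.61 in wild-type kidney and 6.85, 6.27 and 6.27 in wild-type stomach, and it lay between 1.16 and 4.09 in the other wild-type arrays. The ranges of either organ and the other 3 tissues did not overlap. The difference was 3.50 ± 0.33 in kidney (SE, limma adjusted p = 1.02e-06, at least 1.17) and 3.07 ± 0.33 in stomach (adjusted p = 3.74e-06, at least 0.74). Kcnj10, the basolateral inward rectifier of the distal tubule, which glia also carry, was higher in wild-type kidney by 1.64 ± 0.36 (at least 0.82, limma adjusted p = 0.00251) and in wild-type brain by 1.15 ± 0.36 (at least 0.34, adjusted p = 0.0135).

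Kcne4, an auxiliary subunit that inhibits several voltage-gated pores, was higher in wild-type stomach by 2.81 ± 0.20 (SE, at least 1.74, limma adjusted p = 4.13e-08), in kidney by 1.55 ± 0.20 (at least 0.48, adjusted p = 2.56e-05) and in salivary tissue by 1.37 ± 0.20 (at least 0.29, adjusted p = 6.76e-05). Stomach was also higher in Kcnj8 by 1.54 ± 0.10 (limma adjusted p = 9.34e-09). The voltage-gated Kcna5 was higher in stomach by 0.96 ± 0.18 (at least 0.23, limma adjusted p = 0.000941), and Kcnmb1, the BK subunit of smooth muscle, by 0.70 ± 0.22 on 1421400_at (adjusted p = 0.023). Kcnmb1 passed in 7 of 10 alternatives (limma adjusted p 0.00731 to 0.0831) and in 0 of 3 fits with arrays left out. Its other probe set, 1421401_at, was not above background in stomach. Kcnk1, a tandem pore channel of epithelia and brain, was higher on 1448690_at by 0.56 ± 0.10 in kidney (at least 0.33, limma adjusted p = 4e-04) and by 0.51 ± 0.10 in stomach (at least 0.28, adjusted p = 0.000931). Its wild-type means were 7.70 in kidney and 7.66 in stomach, near the 7.52 of brain and under the 9.02 of salivary tissue. In wild-type liver it was not above background, which lowers the mean that these tissues were set against.

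Kcnn4, the intermediate conductance calcium-activated channel that supports fluid secretion in gland cells and volume loss in red cells, led in salivary tissue. In liver it led on 1 of its 2 probe sets. On 1435945_a_at it had 11.63, 11.29 and 11.16 in wild-type salivary tissue, 9.33, 9.57 and 9.55 in liver, 6.18, 6.81 and 6.63 in stomach, 5.58, 5.57 and 5.05 in kidney, and 3.11, 3.35 and 2.95 in brain. The ranges of the 5 tissues did not overlap. The difference was 5.22 ± 0.15 in salivary tissue (SE, at least 4.62, limma adjusted p = 3.47e-12) and 2.87 ± 0.15 in liver (at least 2.28, adjusted p = 4.21e-10), and the second probe set, 1421038_a_at, was higher in salivary tissue by 5.77 ± 0.42 (at least 2.06). On 1421038_a_at wild-type liver was not above background and did not pass as higher. Erythroid markers had a summed level of 10.69 to 10.83 in wild-type liver, against 6.78 to 7.45 in wild-type salivary tissue and 5.25 to 5.68 in wild-type brain. Their part in the Kcnn4 level was not tested.

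Wild-type salivary tissue was further higher in Kcnk1, by 2.21 ± 0.10 on 1448690_at (SE, at least 1.98, limma adjusted p = 2.4e-10) and 1.89 ± 0.31 on 1455896_a_at (at least 0.86). Kcna7, a voltage-gated subunit known from skeletal muscle, was higher there by 1.90 ± 0.43 (at least 1.40, limma adjusted p = 0.00288), and 0 of the 8 striated muscle markers were above background in wild-type salivary tissue. Kcnj6, a neuronal inward rectifier, was higher in wild-type liver on 1451868_at by 0.80 ± 0.32 (at least 0.12, limma adjusted p = 0.0463), and passed in 4 of 10 alternatives (adjusted p 0.0119 to 0.451). Liver did not lead on its probe set 1425044_at. Wild-type means there were 6.07 in brain, 5.88 in liver, 5.84 in salivary tissue, 5.26 in kidney and 4.84 in stomach.

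**Figure D2:**
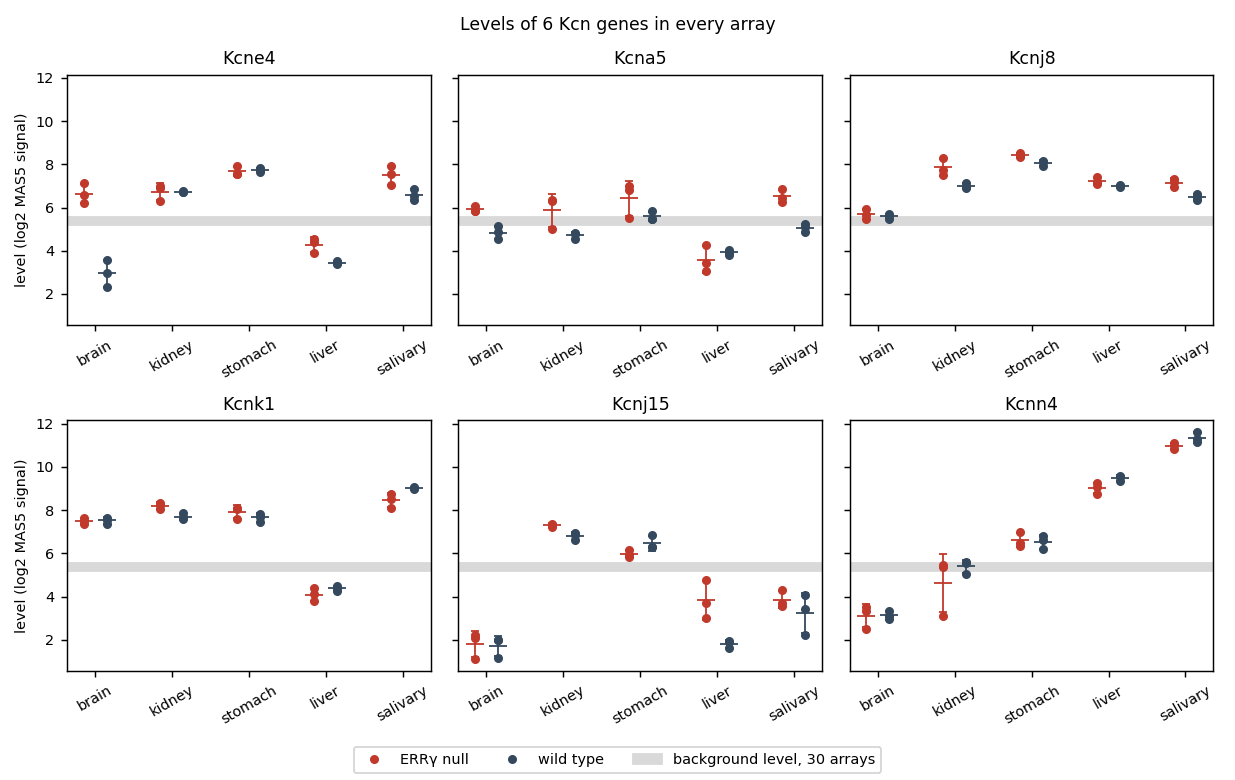
Level (log2 MAS5 signal) of Kcne4, Kcna5, Kcnj8, Kcnk1, Kcnj15 and Kcnn4 in every array by tissue, with null left of wild type, points for single arrays, bars for the mean and SD of 3 arrays and a grey band for the background levels of the 30 arrays. Kcne4 lies between 6.21 and 7.12 in null brain, against 2.33 to 3.57 in wild-type brain.

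The effect of losing ERRγ was tested in each tissue among probe sets whose mean reached the 40th percentile. The median difference of the tested members was 0.29 in salivary tissue, 0.19 in stomach, 0.13 in kidney, 0.04 in brain and -0.06 in liver, and that of all tested probe sets was 0.02 in salivary tissue, 0.03 in stomach, 0.01 in kidney, 0.01 in brain and 0.03 in liver.

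In stomach, 20 members were tested and 1 passed (limma, adjusted p under 0.05), against a background of 23.5% of the 13576 probe sets tested in either direction and 12.2% lower. At an unadjusted p under 0.05 the shares were nearer, with 7 members (35% of members, against 38.83% of all probe sets). The 1 member that passed was Kcnh2, the pore of the rapid delayed rectifier of heart, at 5.64, 5.97 and 5.25 in null stomach, against 6.27, 6.53 and 6.26 in wild-type stomach. Every null array was below every wild-type array, and 1 null array was under its background level. Kcnh2 fell by 0.73 ± 0.20 on the log2 scale (SE, limma adjusted p = 0.0329), passed in 8 of 19 alternatives (adjusted p 0.013 to 0.326), and was lost without any single wild-type array and without null array 1 or 3 (adjusted p 0.065 to 0.0993). It was also lost with the 3' to 5' Gapdh gap as a covariate (adjusted p = 0.316). That gap, a measure of RNA quality, averaged 3.77 ± 0.22 in null stomach and 2.60 ± 0.45 in wild-type stomach (SD, n = 3 each), and its part in the result was not tested beyond this. The Kcnh2 call was lost with Alb as a covariate (-0.75, adjusted p = 0.14) and without wild-type arrays 2 and 3, which were high in Alb (-0.65, adjusted p = 0.326).

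Other members of stomach did not pass. Kcnj8 had 8.40, 8.35 and 8.52 in null stomach, against 7.92, 8.11 and 8.16 in wild-type stomach, a difference of 0.36 (95% interval 0.09 to 0.63, limma adjusted p = 0.0544). Kcna6, a voltage-gated subunit of neurons, had 6.31, 6.01 and 6.06 in null stomach, against 5.81, 5.56 and 5.12 in wild-type stomach (difference 0.63, limma adjusted p = 0.0561). The groups did not overlap in either gene. Kcna6 passed in 5 of 19 alternatives, without wild-type array 1 among them (adjusted p = 0.045, range 0.014 to 0.82). Kcnj15 had 6.17, 5.84 and 5.94 in null stomach, against 6.85, 6.27 and 6.27 in wild-type stomach, a difference of -0.48 (95% interval -0.92 to -0.04, adjusted p = 0.102). Markers of several cell types moved in the same arrays. All 5 parietal cell markers passed the test as lower in null stomach, with summed levels of 10.75 to 11.39 against 12.80 to 12.90 in wild-type stomach. All 6 hepatocyte markers were lower in null stomach, with 2 past the test and summed levels of 10.98 to 11.58 against 11.34 to 13.76. Of 8 striated muscle markers 7 were lower and 2 passed, with summed levels of 8.98 to 9.34 against 9.56 to 9.68. Of 6 smooth muscle markers 2 passed as lower, with overlapping summed levels of 13.57 to 13.88 against 13.63 to 13.84. All 5 pericyte markers were higher in null stomach, 1 of them past the test, with summed levels of 10.32 or more in null arrays and of 10.12 or less in wild-type arrays. The part of these cell types in the channel values was not tested, apart from the Alb fits of Kcnh2.

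Some stomach members were under background in both genotypes and have no fold. Kcne1, an auxiliary subunit of Kcnq1, was listed at 0.72, 0.78 and 1.06 in null stomach, against 4.95, 3.83 and 4.02 in wild-type stomach, all under the background level. Kcne3 lay between 4.07 and 4.53 in null stomach and between 3.59 and 4.13 in wild-type stomach, and Kcnj10 between 3.63 and 4.52 and between 4.20 and 4.5.

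In kidney, 23 members were tested and 0 passed (limma, against a background of 0.781% of all probe sets tested), and 5 had an unadjusted p under 0.05 (21.74% of members, against 14.83% of all probe sets). Kcnj8 had 8.31, 7.52 and 7.73 in null kidney, against 6.96, 6.90 and 7.15 in wild-type kidney. All null arrays were above all wild-type arrays, with a difference of 0.85 (95% interval 0.42 to 1.28, limma adjusted p = 0.0765). It passed in 3 of 18 alternatives, among them the fit over all 30 arrays (adjusted p = 0.0101) and the fit without null array 2 (adjusted p = 0.0306), with a range of 0.0101 to 0.247. Summed pericyte markers were 10.52 to 10.70 in null kidney and 10.51 to 10.72 in wild-type kidney, and their part in the Kcnj8 value was not tested.

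The tubule members of kidney gave smaller differences that did not pass. Of 7 renal tubule markers 5 were lower in null kidney, with Umod past the test (-1.02, limma adjusted p = 0.0326) and summed levels of 12.40 to 12.52 against 12.53 to 12.83 in wild-type kidney, and their part in the channel values was not tested. Kcnk1 on 1448690_at had 8.25, 8.33 and 8.04 in null kidney, against 7.59, 7.66 and 7.86 in wild-type kidney (difference 0.50, 95% interval 0.22 to 0.79, limma adjusted p = 0.108). Kcnj15 had 7.23, 7.33 and 7.37 in null kidney, against 6.94, 6.87 and 6.61 in wild-type kidney (difference 0.50, 95% interval 0.21 to 0.80, adjusted p = 0.127). For Kcnk1 on 1448690_at and for Kcnj15 the null arrays were all above the wild-type arrays. The other probe set of Kcnk1, 1455896_a_at, was above background in neither genotype of kidney. It differed there by 0.11 without the filter, with overlapping groups (limma adjusted p = 0.922). Kcnj10 had 6.54, 6.45 and 6.23 in null kidney, against 6.69, 6.06 and 6.16 in wild-type kidney, with overlapping groups. Kcnma1 differed by 0.04 on the probe set near background (95% interval -0.39 to 0.47), and Kcne1 and Kcnk5, a tandem pore channel of the proximal tubule, were not above background in either genotype of kidney. Kcna6 differed by 0.56 (limma adjusted p = 0.215) and Kcnab1, a beta subunit of voltage-gated channels, by 0.42 (adjusted p = 0.252).

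In salivary tissue, 25 members were tested and 2 passed, both higher in null tissue (limma, against 3.5% of all probe sets tested that were higher and 8.22% in either direction). Kcna5 had 6.27, 6.45 and 6.85 in null salivary tissue, against 5.24, 4.86 and 5.08 in wild-type salivary tissue. All wild-type arrays were under background and all null arrays above it. Kcna5 rose by 1.46 ± 0.24 (SE, limma adjusted p = 0.00823), at least 1.14 against the background level, and passed in 17 of 17 alternatives (adjusted p 0.00396 to 0.0442). Kcne4 had 7.90, 7.02 and 7.57 in null salivary tissue, against 6.37, 6.86 and 6.54 in wild-type salivary tissue. The groups did not overlap, and Kcne4 rose by 0.91 ± 0.24 (limma adjusted p = 0.0493). It passed in 7 of 18 alternatives (adjusted p 0.0109 to 0.149), was lost with replicate number as a block (adjusted p = 0.116) and without any array other than null array 2 (adjusted p 0.0939 to 0.149).

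Other cell types moved in the same salivary arrays. All 8 striated muscle markers were higher in null salivary tissue, 5 of them above background there and 0 in wild-type tissue, with summed levels of 10.05, 9.82 and 9.04 in null arrays against 7.36, 7.07 and 7.66 in wild-type arrays. Only Actc1 of the 8 passed the test (1.45, limma adjusted p = 0.027). All 4 salivary gland markers were lower in null tissue, with summed levels of 13.36 to 13.96 against 13.72 to 14.09, and Aqp5, the water channel of acinar cells, passed (-0.82, adjusted p = 0.0234). Of 6 hepatocyte markers 5 were higher in null salivary tissue and 0 passed. Their summed levels were 10.89, 7.54 and 10.31 in null arrays against 8.42, 6.89 and 6.44 in wild-type arrays. The part of these cell types in the values of Kcna5, Kcne4 and the other salivary members was not tested.

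The secretory channels of salivary tissue did not pass. Kcnk1 on 1448690_at had 8.51, 8.10 and 8.75 in null salivary tissue, against 9.01, 9.09 and 8.96 in wild-type salivary tissue, a difference of -0.57 (95% interval -0.96 to -0.17, limma adjusted p = 0.083). Kcnn4 had 10.82, 11.00 and 11.10 in null salivary tissue, against 11.63, 11.29 and 11.16 in wild-type tissue, a difference of -0.39 (95% interval -0.72 to -0.06, adjusted p = 0.147). For Kcnk1 on 1448690_at and for Kcnn4 every null array was below every wild-type array. On 1455896_a_at Kcnk1 differed by -0.32, with overlapping groups (limma adjusted p = 0.463). Kcnj8 had 7.34, 6.93 and 7.16 in null tissue, against 6.50, 6.37 and 6.64 in wild-type tissue (difference 0.64, 95% interval 0.25 to 1.03, adjusted p = 0.0551). It passed in 5 of 18 alternatives, without null array 2 among them (adjusted p = 0.0365, range 0.00649 to 0.2). Kcnma1 differed by 0.87 on 1424848_at (adjusted p = 0.155) and by 0.44 on 1425987_a_at (adjusted p = 0.296).

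**Figure D3:**
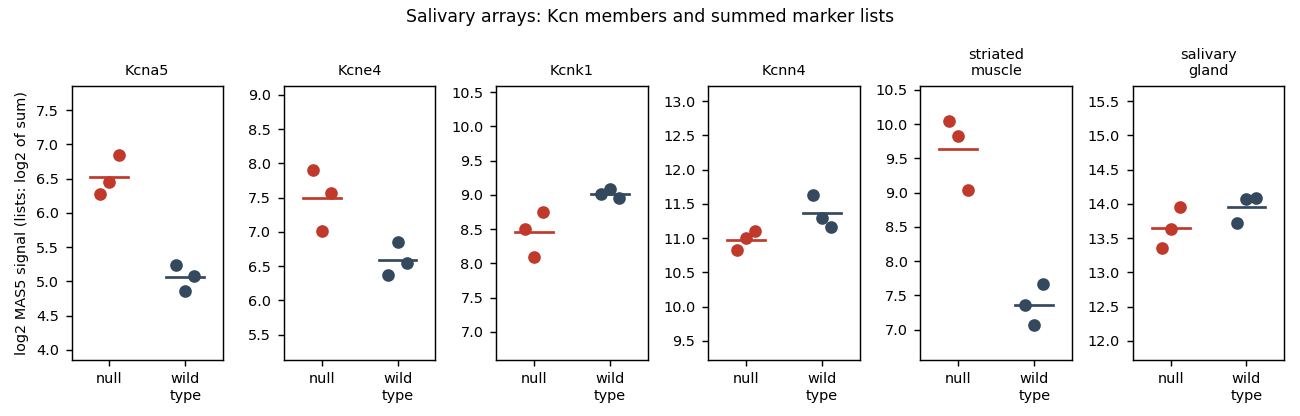
Levels of Kcna5, Kcne4, Kcnk1 and Kcnn4 (log2 MAS5 signal) and log2 of the summed signal of the striated muscle and salivary gland markers in the 3 null (left) and 3 wild-type (right) salivary arrays, with lines at the means and every axis spanning the same log2 range. Striated muscle markers lie between 9.04 and 10.05 in null arrays, against 7.07 to 7.66 in wild-type arrays.

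In liver, 16 members were tested and 0 passed (limma, background 6.93%), and 1 had an unadjusted p under 0.05 (6.25% of members, against 22.78% of all probe sets). That was Kcnn4, at 8.76, 9.07 and 9.24 in null liver, against 9.33, 9.57 and 9.55 in wild-type liver. Every null array was lower, with a difference of -0.46 (95% interval -0.82 to -0.10, limma adjusted p = 0.128). Summed erythroid markers were 11.10 to 11.38 in null liver and 10.69 to 10.83 in wild-type liver. Kcnh1 differed by -0.46 (adjusted p = 0.28) and Kcnj8 by 0.23 (adjusted p = 0.429). Kcnn2, a small conductance calcium-activated channel, and Kcnk5 were not above background in either genotype of liver.

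In brain, 32 members were tested and 0 passed, as did 0 of all 13577 probe sets (limma, background 0%), with 2 members and 1426 probe sets at an unadjusted p under 0.05. Kcnma1 had 6.46, 6.47 and 6.15 on 1424848_at in null brain, against 7.0, 6.67 and 7.09 in wild-type brain, a difference of -0.56 (95% interval -0.93 to -0.19, limma adjusted p = 0.379). Its other probe set, 1425987_a_at, went the other way, by 0.15 (limma adjusted p = 0.706). Kcnd2 differed by -0.36 on 1450773_at (adjusted p = 0.421), Kcnh2 by 0.47 (adjusted p = 0.485), Kcnmb2 by 0.26 on 1426322_a_at (adjusted p = 0.545) and Kcnk2 by -0.22 (adjusted p = 0.547). The other probe sets of Kcnd2 differed by -0.12 and -0.02, and that of Kcnmb2 by 0.17. Kcnj11 and Kcnj2, inward rectifiers of endocrine cells, muscle and heart, were under background in all 10 groups.

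Kcne4 stood outside that test because its mean over the 6 brain arrays was under the filter. It had 7.12, 6.21 and 6.60 in null brain, against 2.33, 3.57 and 2.98 in wild-type brain. All null arrays were above background and all wild-type arrays under it. Without the filter the difference of 3.68 ± 0.39 did not pass in the brain fit (SE, limma adjusted p = 0.0979). It passed in a fit over all 30 arrays without filter, which was chosen after seeing the data (3.68 ± 0.27, adjusted p = 1.08e-08), and as a bound it is at least 1.23. In that fit it was 3.37 to 3.99 with any 1 brain array left out, and passed each time. It was 3.44 without the null array that stood apart in muscle and salivary markers (adjusted p = 3.72e-07). All 8 striated muscle markers were higher on average in null brain, none above background in either genotype, and their part in the Kcne4 value was not tested beyond leaving out that array.

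**Figure D4:**
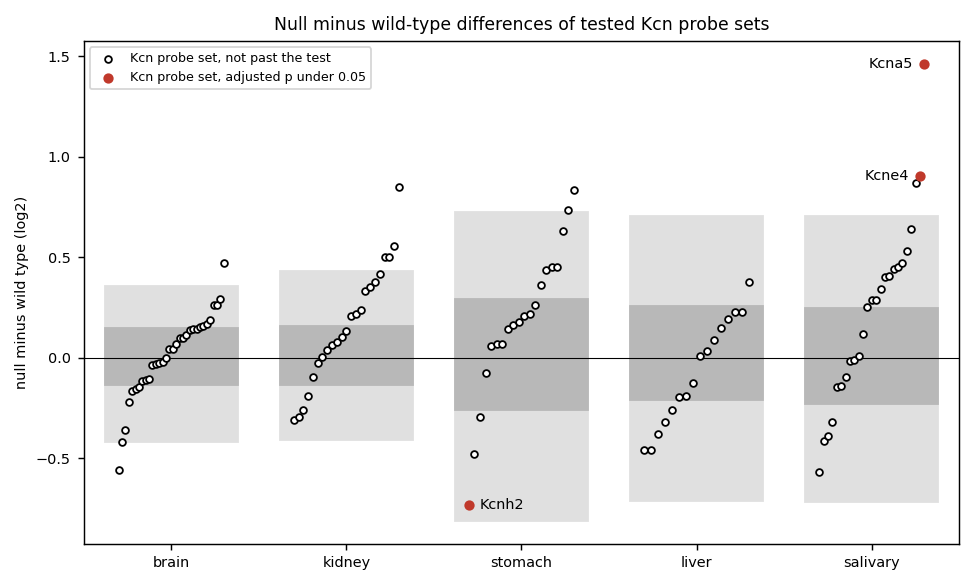
Null minus wild-type differences (log2) of the tested Kcn probe sets in each tissue, ordered by size. Red points passed at an adjusted p under 0.05 (Kcnh2 in stomach, Kcna5 and Kcne4 in salivary tissue), open points did not, and grey boxes span the 5th to 95th (light) and 25th to 75th (dark) percentiles of all probe sets tested. Kcne4 in brain, under the filter, is not drawn.

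Over all 30 arrays, 44 members reached the filter in at least 1 tissue, and 6 passed for the average of the 5 null minus wild-type differences, all higher in null tissue (limma, against 11.4% of all probe sets higher and 22.5% in either direction). The average uses the same arrays as the comparisons by tissue. Kcne4 averaged 1.07 ± 0.12 (SE, limma adjusted p = 9.39e-07), 0.41 with brain left out (adjusted p = 0.00913), and 0.42 once values under background were set to the background level (adjusted p = 0.00167). Its differences were 3.68 in brain (at least 1.23), 0.82 in liver, where both genotypes were under background, 0.91 in salivary tissue, 0.00 in kidney and -0.08 in stomach. Kcnj8 averaged 0.44 ± 0.07 (adjusted p = 9.16e-05), with positive differences of 0.85 in kidney, 0.64 in salivary tissue, 0.36 in stomach, 0.23 in liver and 0.10 in brain, and passed in 14 of 14 alternatives (adjusted p 4.89e-05 to 0.0126). Summed pericyte markers were 8.52 to 8.61 in null liver against 8.04 to 8.11 in wild-type liver. They were 9.83 to 9.99 against 9.49 to 9.90 in salivary tissue and 9.23 to 9.68 against 9.55 to 9.68 in brain. Stomach and kidney sums are given above, and the part of pericytes in the Kcnj8 values was not tested. Kcna5 averaged 0.84 ± 0.16 (adjusted p = 0.000304), and was lost without replicate 3 (0.60, adjusted p = 0.0633). With the same floor it averaged 0.63 (adjusted p = 0.00012). It was under background in wild-type salivary tissue, brain and kidney, where its differences of 1.46, 1.10 and 1.16 come to at least 1.14, 0.52 and 0.64, and 1 of the 3 null kidney arrays was also under it. Its difference was 0.84 in stomach, with overlapping groups, and both genotypes of liver were under background.

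The other 3 members passed in fewer alternatives. Kcnma1 on 1424848_at averaged 0.56 ± 0.19 (SE, limma adjusted p = 0.0331) and passed in 7 of 14 alternatives, with 0.07 once values under background were set to the background level (adjusted p = 0.494). Brain was the only tissue where this probe set was above background, and null brain was lower there, by -0.56. The positive average came from groups not above background, with differences of 1.25 (kidney), 0.91 (liver), 0.87 (salivary tissue) and 0.34 (stomach). Kcnj15 averaged 0.55 ± 0.19 (adjusted p = 0.0373), passed in 8 of 14, and came to 0.02 with the same floor (adjusted p = 0.823), since its 2.02 in liver was between groups that were both under background. Kcna6 averaged 0.24 ± 0.08 (adjusted p = 0.0351) and came to 0.14 without stomach (adjusted p = 0.32). Leaving out 1 or more replicate numbers ended each of these 3 calls.

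Of the 44, 3 members also differed between tissues in their response, by an F test of the 5 differences in the same fit (limma, against 15.3% of all probe sets). They were Kcne4 (F = 31.3, adjusted p = 2.46e-06, and F = 8.41 with the floor, adjusted p = 0.00285), Kcnk1 on 1448690_at (F = 6.30, adjusted p = 0.0147) and Kcnj15 (F = 4.79, adjusted p = 0.0382). Kcnk1 differed on that probe set by 0.50 in kidney, 0.26 in stomach, -0.02 in brain and -0.57 in salivary tissue. Its other probe set, 1455896_a_at, did not pass (F = 1.70, limma adjusted p = 0.358). Kcnj15 differed by 0.50 in kidney and -0.48 in stomach, the 2 tissues where it was above background. Leaving out any replicate number ended the calls of Kcnk1 and Kcnj15 (adjusted p 0.0842 to 0.306), and the call of Kcnj15 also ended without stomach (adjusted p = 0.22).

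The promoters of Kcne4, Kcna5 and Kcnj8, the members with the smallest p on average, are shown with that of Kcnh1, the only one of 48 member genes searched with an AAGGTCA core. Each line gives the 250 bases before the annotated start from RefSeq on GRCm38.p6, at chr1:78816661-78816910 (+ strand) for Kcne4, chr6:126535556-126535805 (- strand) for Kcna5, chr6:142571615-142571864 (- strand) for Kcnj8 and chr1:192190527-192190776 (+ strand) for Kcnh1. Capitals mark AAGGTCA and GGGCGG on either strand.
Kcne4: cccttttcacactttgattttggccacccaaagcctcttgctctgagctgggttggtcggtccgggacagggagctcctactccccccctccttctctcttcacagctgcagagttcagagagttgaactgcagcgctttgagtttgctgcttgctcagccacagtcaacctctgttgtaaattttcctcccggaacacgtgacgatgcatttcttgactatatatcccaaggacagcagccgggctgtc
Kcna5: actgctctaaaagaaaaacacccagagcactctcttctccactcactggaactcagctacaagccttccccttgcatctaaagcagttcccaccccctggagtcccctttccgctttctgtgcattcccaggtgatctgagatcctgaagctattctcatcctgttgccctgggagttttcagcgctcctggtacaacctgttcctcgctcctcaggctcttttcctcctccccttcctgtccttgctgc
Kcnj8: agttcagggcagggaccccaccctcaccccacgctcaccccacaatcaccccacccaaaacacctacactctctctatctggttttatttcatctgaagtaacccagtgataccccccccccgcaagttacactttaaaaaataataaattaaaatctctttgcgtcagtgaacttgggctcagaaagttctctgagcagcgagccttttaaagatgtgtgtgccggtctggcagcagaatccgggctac
Kcnh1: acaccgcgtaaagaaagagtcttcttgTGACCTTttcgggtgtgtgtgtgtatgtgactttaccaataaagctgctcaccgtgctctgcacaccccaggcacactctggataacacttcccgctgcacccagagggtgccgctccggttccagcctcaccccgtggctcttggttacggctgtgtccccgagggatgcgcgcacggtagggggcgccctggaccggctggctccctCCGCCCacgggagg

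Windows of 300 bases were given for 48 of the 59 genes, 65 windows in all, and searched on both strands. TNAAGGTCA, which holds AAGGTCA, was in 0 of the 65 windows and in 1.282% of all 32851 windows. AAGGTCA was in 1 of the 65 and in 4.718% of all windows. The GC box GGGCGG was in 33 of the 65 and in 35.658% of all, and TATAAA in 3 of the 65, those of Kcnab1, Kcnj15 and Kcnj9, and in 13.616% of all. A match is a description of these letters and not a binding site. Kcnk2 and Kcnh1 lie near Esrrg on chromosome 1, with 2 and 28 protein-coding genes between, and Kcne4 lies 736 genes away.

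Channel partners without a Kcn symbol were followed as a list of 29 genes, 23 of them on the array. The list was chosen with earlier results of these data known, so its shares are a description and no independent test. In stomach 9 of 20 tested probe sets passed as higher in null tissue and 0 as lower, against 11.2% of all probe sets higher and 12.2% lower. The 3' to 5' Gapdh gap given above moved with genotype in these stomach arrays, and its part in the partner values was not tested. The other tissues had 2 of 17 higher and 0 lower in liver (3.47% of all higher), 1 of 17 and 0 in kidney (0.412% higher), 1 of 18 and 1 in salivary tissue (3.5% higher and 4.72% lower), and 0 of 24 in either direction in brain. Sgk1, a kinase that raises channel density at the membrane, rose by 1.02 ± 0.17 in null kidney (SE, limma adjusted p = 0.0326), 0.97 ± 0.24 in stomach (adjusted p = 0.0218), 1.85 ± 0.40 in liver (adjusted p = 0.0285) and 1.90 ± 0.46 in salivary tissue (adjusted p = 0.0358). In stomach Akap9, the anchoring protein of the Kcnq1 complex, rose by 1.09 ± 0.19 and 0.55 ± 0.14 on its probe sets, and Wnk1, a kinase of renal salt and potassium handling, by 0.71 ± 0.14 and 0.34 ± 0.10. Lrrc26, an auxiliary subunit of BK channels in gland cells, rose by 0.56 ± 0.15 in stomach (limma adjusted p = 0.0311) and fell by 0.52 ± 0.13 in salivary tissue (adjusted p = 0.041). Nedd4l, a ubiquitin ligase that removes channels from the membrane, rose by 1.09 ± 0.21 in liver (adjusted p = 0.0193).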

How the data were processed

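Log2 values of 30 Affymetrix MOE430A arrays were used as deposited. The authors made these log2 values with MAS5, per the submitters' processing notes, and its version and scaling target were not given in the sources used here. On every array the 2% trimmed mean of the linear values was 149.988 to 150.008, and medians were 5.80 to 6.08. Of 22690 probe sets, 64 controls were left out. Symbols came from the supplied probe table.

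Null and wild-type arrays were compared per tissue with limma 3.58.1 in R 4.3.3 (lmFit, eBayes with a trend) on probe sets whose mean reached the 40th percentile, with Benjamini-Hochberg adjustment over all of them and a threshold of 0.05. Wild-type tissues were compared with no filter, and the average and the F test used all 30 arrays. Fits were tested on simulated data with known changes. The limit on the share of changes recovered was lowered after the F test between tissues missed a first limit. Named members are those that passed, or the 5 with the smallest p, up to 10 leading members per wild-type tissue, and members with a textbook role. Members and lists were chosen with earlier results of these data known. Alternatives were other filters, floors, pseudocounts, normalizations, covariates, array weights, a replicate block, and left-out arrays or tissues. Same-numbered null and wild-type arrays of 15 pairs correlated at -0.239 to 0.143, so the numbers were not taken as pairs.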

Additional observations from a re-analysis of the deposited data

Results flagged for a closer look

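The null minus wild-type difference of Kcne4 was not the same in the 5 tissues (limma F test, adjusted p = 2.46e-06), being 3.68 in brain and 0.00 in kidney. That of Kcnk1 on 1448690_at also differed between tissues (adjusted p = 0.0147), from 0.50 in kidney to -0.57 in salivary tissue. The other probe set of Kcnk1, 1455896_a_at, did not pass in the same test (limma F test, adjusted p = 0.358). That of Kcnj15 differed between tissues as well (adjusted p = 0.0382), being 0.50 in kidney and -0.48 in stomach. The calls of Kcnk1 and Kcnj15 ended when any replicate number was left out. None of these differences of Kcnk1 and Kcnj15 passed in the test of its own tissue (limma adjusted p 0.083 to 0.127).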

How the results depend on the processing

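No direction of a named member turned under any alternative run. Counts of members that passed in null against wild-type comparisons moved as follows. In stomach, where 1 passed, 4 passed without the filter, 2 with quantile normalization, a floor at the 40th percentile or no mean-variance trend, 3 with array weights, 0 with a covariate (the Gapdh gap, or Alb) or without both wild-type arrays high in Alb, and 0 to 3 with 1 array left out. In salivary tissue, where 2 passed, 1 passed without the filter, with quantile normalization, equal array medians or no trend, 4 in the fit over all 30 arrays, and 1 to 4 with 1 array left out. With replicate number as a block, 1 member passed in salivary tissue, and in no other comparison did the block move the count by more than 1.5 times. In kidney, where 0 passed, 1 passed in the fit over all 30 arrays and 0 to 1 with 1 array left out. In liver, where 0 passed, 1 passed with array weights. The fit over all 30 arrays without filter, chosen after seeing the data, gave 7 members in salivary tissue, 3 in stomach, 3 in liver, 1 in kidney and 1 in brain. Among these, Kcnk5, Kcnj14 and Kcnh7 in salivary tissue and Kcne1 and Kcnj12 in stomach were above background in neither genotype. Kcnh2 in stomach did not pass in that fit (limma adjusted p = 0.32). With 1 brain array left out, 1 passed in brain in each such fit and 0 in each fit of brain alone.

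In wild-type liver, where 28 members passed, 63 did with a floor at the 40th percentile. The average effect had 6 members and 3 to 6 with a replicate number left out, and the difference between tissues had 3, 6 with the floor and 1 to 4 with arrays left out. Among named members, 436 null against wild-type values kept their side of the threshold, 20 crossed to passing and 22 crossed to not passing. MAS5 values near or under background scatter widely, so differences there have only a bound, and 3 arrays per group leave wide intervals. Probe sets under background were not shown to lack expression.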
